A study of Mus musculus with 9 samples.

Results

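The Trim genes encode the tripartite motif family, most of whose members are RING-type ubiquitin ligases. They were followed here in mouse tibialis anterior muscle after siRNA against Ubr4, itself a large ubiquitin ligase of the N-degron pathway. Members were taken as every row of the deposited expression table whose symbol is Trim followed by a number, with Trim63 left out. That gave 57 of 23231 rows. A value above 0 was listed for 56 of them, and 27 had a mean of at least 1 FPKM (a read level scaled by transcript length and by library depth) over the 9 libraries. Those 27 were tested, 47.4% of the members against 46.5% of all rows.

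All libraries came from tibialis anterior, a shin muscle, of C57BL/6 mice aged 6 months, into which siRNA had been electroporated. The control group received a non-targeting siRNA, and the other groups received construct 5 or construct 7, both directed at Ubr4. No genotype beyond the strain and the siRNA is given. Each group has 3 libraries of total RNA. Nothing in the labels says whether these are separate animals, so the p-values measure only the spread between libraries, which may be technical. The share of fibres that took up siRNA is not given either, and whole-muscle RNA mixes fibres that did with those that did not.

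Proteins of this family carry a RING finger, 1 or more B-boxes and a coiled coil, and the part that follows decides what they bind. The RING recruits an E2 enzyme that passes ubiquitin to the bound target. In striated muscle the muscle RING fingers sit on sarcomeres and microtubules, and Trim72 acts in resealing of the fibre membrane. A large part of the family, in mouse including a gene cluster on chromosome 7, takes part in antiviral defence and responds to interferon. The label of ubiquitin ligase does not hold for every member, since Trim14, Trim16, Trim29, Trim44 and Trim66 are known to lack the RING finger.

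The promoters of the interferon-linked members are shown first, because the antiviral group is the one the later comparison turns on. RefSeq promoters on GRCm38.p6, each 300 bases long with 250 before and 50 after a start site, matched 43 of the 57 members by symbol. The letters GAAA followed, after any 2 bases, by GAAA again, the form of the interferon-stimulated response element, were searched on both strands. It was found in 9 members (Trim2, Trim5, Trim12a, Trim12c, Trim21, Trim26, Trim30a, Trim30d and Trim34a), of which 3 were tested. Among all RefSeq promoters, 1122 of 32544 hold it, or 3.45%. That share is per promoter, while the 9 are genes, some of them with several start sites. A match is a description of these letters and not a shown binding site. Capitals mark the match in each window of 30 bases, printed 5′ to 3′ on the gene's strand. The windows of Trim2 and Trim12a, and that of another start site of Trim30a, are not printed.

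Trim12c, chr7:104353359-104353388, minus strand: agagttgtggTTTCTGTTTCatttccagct
Trim5, chr7:104288136-104288165, minus strand: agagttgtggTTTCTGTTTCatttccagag
Trim30a, chr7:104465210-104465239, minus strand: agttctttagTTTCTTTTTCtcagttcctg
Trim30d, chr7:104507871-104507900, minus strand: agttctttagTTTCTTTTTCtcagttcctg
Trim34a, chr7:104244457-104244486, plus strand: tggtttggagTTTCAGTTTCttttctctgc
Trim21, chr7:102565450-102565479, minus strand: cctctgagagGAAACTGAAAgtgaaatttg
Trim26, chr17:36836976-36837005, plus strand: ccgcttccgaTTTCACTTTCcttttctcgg

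Trim12c and Trim5 share the match and its left flank, and the windows of Trim30a and Trim30d are identical. The unprinted window of Trim12a is the same as that of Trim5. All these genes belong to a cluster of related copies: 10 members (Trim6, Trim34a, Trim5, Trim12a, Trim34b, Trim12c, Trim30b, Trim30c, Trim30a and Trim30d) lie next to each other on chromosome 7 with at most 2 other genes between neighbours. Copies that share transcript sequence also make the counts uncertain, since reads from one copy can be assigned to another, to a degree that differs between the genes. Of the 50-base words in the Trim12c transcript, 32.7% occur in other genes, most of them in Trim5, and the shares are 41.3% for Trim34a and 59% for Trim34b. For Trim30d, Trim30a and Trim12a they are lower, at 8.29%, 6.53% and 4.46%, so a like promoter window does not mean a like transcript.

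For Trim26, which lies on chromosome 17 outside the cluster and shares only 1.82% of its words, the 250 bases before the start site (chr17:36836896-36837145, plus strand) are given in full.

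Trim26: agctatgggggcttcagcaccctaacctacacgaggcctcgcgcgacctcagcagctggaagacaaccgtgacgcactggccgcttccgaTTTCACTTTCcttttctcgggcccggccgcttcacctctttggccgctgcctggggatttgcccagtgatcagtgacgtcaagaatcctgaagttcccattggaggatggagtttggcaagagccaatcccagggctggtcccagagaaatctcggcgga

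Its match begins 160 bases before the start site. The MEF2 motif, bound by a family of muscle transcription factors, was searched in the same promoters on both strands. Its letters were taken as C or T, then TA, a short run of A or T, TA again, and A or G. This motif was found in 1 member, Trim39, against 3.16% of all promoters, a share that is again per promoter.

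Ubr4, the targeted gene, stood at 7.82, 10.3 and 9.09 FPKM in the controls, at 3.61, 3.80 and 2.73 with construct 5 and at 2.25, 2.58 and 3.07 with construct 7. It fell by 1.20 on the log2(FPKM + 1) scale with construct 5 (adjusted p = 0.0168) and by 1.47 with construct 7 (adjusted p = 0.00882) and was below all controls in all 6 libraries. The first call was lost without control replicate 2 or 3 and without construct 5 replicate 1 (adjusted p up to 0.0956), and the second without control replicate 2 or 3 and without construct 7 replicate 2 (up to 0.0877). Depth recovered from the steps of low FPKM values was 29312133 to 45563561 reads, and 3 reads were worth 0.0658 to 0.102 FPKM for a 1 kb transcript. Fibre markers such as Acta1 and Ckm summed to 56937 to 70494 FPKM in every library, the level of a muscle. Libraries of 1 group correlated at 0.985 to 0.993 on the log scale. Construct 5 stood apart from both other groups across all genes, with 569 of 10794 tested genes passing against control, while construct 7 had 6. The construct 5 count was 1 to 41 without any 1 control, construct 5 replicate 1 or 2 or construct 7 replicate 3, and 356 without construct 7 replicate 1.

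Of the 27 tested Trim genes, 0 passed an adjusted p of 0.05 in any of the 4 comparisons (limma on log2(FPKM + 1), Benjamini-Hochberg over all 10794 genes). The share of all genes that passed was 5.27% for construct 5 against control (4.67% higher and 0.602% lower), 0.0556% for construct 7 against control, 0.00926% for the mean of both constructs against control and 1.22% for construct 7 against construct 5 (0.148% higher and 1.07% lower). At an unadjusted p under 0.05, 10 members were higher with construct 5 (28.5% of all genes) and 0 lower (3.4%). With construct 7, 2 were higher (5.84%) and 1 lower (3.63%), and for both constructs together 2 were higher (16.1%) and 1 lower (3.02%). Against construct 5, 8 were lower with construct 7 (20.5%) and 0 higher (2.57%). A missed threshold does not show that a level was the same, and intervals are given below for the members described.

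Levels in muscle spanned more than 4 orders of magnitude on the FPKM scale, and a single gene dominated. Trim54, the muscle RING finger MuRF3, made up 40.4% to 47.3% of the summed FPKM of all members in each library. With Trim72, Trim35 and Trim55 it formed the 4 members above 20 FPKM in the controls. Another 7 lay between 5 and 20 FPKM, 15 between 1 and 5, 15 between 0.1 and 1, and 16 below 0.1. The median control level of the tested members was 3.35 FPKM against 4.90 for all tested genes. Controls also differed among themselves: the ratio of the highest to the lowest control library had a median of 1.179 over the 27 members. It ran from 1.016 for Trim12c to 1.479 for Trim68.

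**Figure D1:**
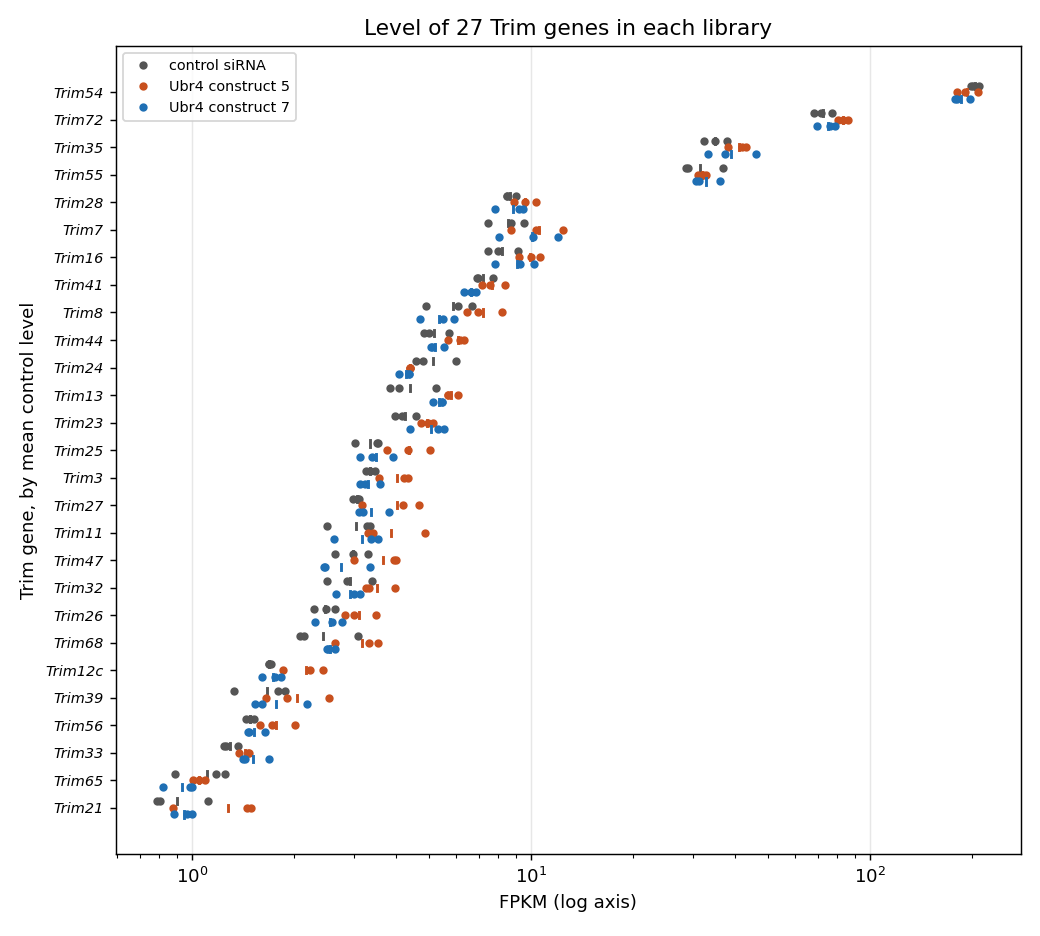
FPKM (log axis) of the 27 tested Trim genes in each of the 9 libraries, ordered by mean control level; points are libraries and short bars the group means. Trim54 stands at 178 to 210 FPKM in every library, and for most genes the 3 groups lie close together relative to the differences between genes.

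The muscle RING finger group, here Trim54 and Trim55, binds titin and microtubules and tags sarcomere proteins for turnover. Trim54 stood at 201, 210 and 199 FPKM in the controls, at 209, 180 and 190 with construct 5 and at 198, 180 and 178 with construct 7. All 3 construct 7 libraries lay below all controls, by a narrow margin, while construct 5 overlapped them. The log2 difference from control was -0.08 with construct 5 (95% interval -0.25 to 0.10, adjusted p = 0.498) and -0.14 with construct 7 (-0.31 to 0.04, adjusted p = 0.633). An antisense transcript, Gm15469, overlaps 26.6% of the Trim54 exons, and strand use in the counting is not given in the sources used here.

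Trim55, known as MuRF2, stood at 29.0, 28.7 and 36.9 FPKM in the controls, at 31.1, 32.2 and 32.8 with construct 5 and at 36.2, 31.2 and 30.7 with construct 7. Every library given an Ubr4 construct fell inside the range of the controls. Its difference was 0.03 with construct 5 (-0.21 to 0.27) and 0.06 with construct 7 (-0.18 to 0.29). Summed over both genes the level was 90.3% to 102% of the control mean with construct 5 and 88.8% to 99.5% with construct 7.

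Among the other members known in muscle, Trim72 (MG53) gathers vesicles at tears in the fibre membrane. It stood at 68.2, 77.5 and 71.7 FPKM in the controls, at 86.2, 80.6 and 83.4 with construct 5 and at 69.6, 79.0 and 76.2 with construct 7. The construct 5 libraries all lay above the controls, and those of construct 7 mingled with them. The difference with construct 5 was 0.20 (0.03 to 0.37, adjusted p = 0.115), and with construct 7 it was 0.05 (-0.12 to 0.22). After the median-ratio scaling described below, Trim72 with construct 5 overlapped the controls, at a difference of 0.06 (adjusted p = 0.705). Antisense Gm15533 overlaps 27.6% of its exons, so its counts carry the same doubt as those of Trim54.

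Trim32, whose mutation causes a limb-girdle muscular dystrophy, stood at 2.49, 2.86 and 3.40 FPKM in the controls, at 3.96, 3.26 and 3.33 with construct 5 and at 3.12, 3.00 and 2.66 with construct 7. The groups overlapped, and the difference with construct 5 was 0.21 (-0.02 to 0.44, adjusted p = 0.184). Trim7, a partner of the glycogen primer glycogenin, stood at 8.70, 7.47 and 9.52 FPKM in the controls, at 12.5, 8.72 and 10.4 with construct 5 and at 10.1, 12.002 and 8.03 with construct 7. Both constructs had the higher mean, 123% and 117% of control, but libraries of every group lay between 8 and 10 FPKM. The fourth gene of the list, Trim62, had a mean under 1 FPKM and was not tested.

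The TIF1 group holds nuclear co-regulators that read chromatin through a PHD finger and bromodomain. Trim24, a co-regulator of nuclear receptors, was the member with the clearest lower level. It stood at 4.59, 4.81 and 6.01 FPKM in the controls, at 4.400, 4.399 and 4.376 with construct 5 and at 4.36, 4.07 and 4.37 with construct 7. All 6 libraries given an Ubr4 construct lay below all controls, and the gap to the lowest control was small beside the spread of the controls. The difference was -0.18 with construct 5 (-0.38 to 0.02, adjusted p = 0.189) and -0.21 with construct 7 (-0.41 to -0.02, adjusted p = 0.486). Both contrasts use the same 3 controls, of which replicate 3 stood highest, so their likeness is not a second observation.

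Trim33, which ubiquitinates Smad4, stood at 1.24, 1.26 and 1.37 FPKM in the controls, at 1.46, 1.47 and 1.37 with construct 5 and at 1.69, 1.41 and 1.43 with construct 7. Here all 6 libraries lay above all controls, with 1 construct 5 library at the edge, and the difference was 0.09 (-0.07 to 0.25) and 0.13 (-0.03 to 0.29, adjusted p = 0.616). Trim28, the co-repressor KAP1 of KRAB zinc finger proteins, stood at 8.51, 8.47 and 9.03 FPKM in the controls, at 10.3, 9.57 and 8.90 with construct 5 and at 9.21, 9.49 and 7.83 with construct 7. Its groups overlapped, with a difference of 0.13 (-0.06 to 0.32) and 0.02 (-0.17 to 0.21). Trim66, the remaining gene of the group, had a mean of 0.045 FPKM and was not tested.

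Trim13, anchored in the endoplasmic reticulum and known for degradation of misfolded proteins there, had the lowest p of the family with either construct. It stood at 3.84, 4.08 and 5.25 FPKM in the controls, at 6.07, 5.67 and 5.68 with construct 5 and at 5.45, 5.45 and 5.12 with construct 7. Construct 5 cleared all controls, at 132% of their mean, and construct 7 had 2 of 3 libraries above them, at 122%. The difference was 0.35 with construct 5 (0.13 to 0.56, adjusted p = 0.0610) and 0.24 with construct 7 (0.03 to 0.46, adjusted p = 0.460). Words shared with Gm9359 make up 14.5% of its transcript, so part of its count may belong there.

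Trim23, which carries a GTPase domain of the ARF family, stood at 3.96, 4.17 and 4.57 FPKM in the controls, at 4.97, 4.72 and 5.11 with construct 5 and at 5.54, 4.38 and 5.29 with construct 7. Construct 5 lay above the controls throughout, and construct 7 had replicate 2 inside their range. The difference was 0.18 with construct 5 (-0.01 to 0.38, adjusted p = 0.178) and 0.21 with construct 7 (0.02 to 0.41, adjusted p = 0.491). Trim23 and Trim13 were the members higher with construct 7 at an unadjusted p under 0.05, a direction in which 5.84% of all genes passed that mark.

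Trim27 and Trim8 are drawn with them; both were chosen after their values were seen. Trim27, a nuclear repressor first found fused to the Ret kinase, stood at 3.10, 2.97 and 3.09 FPKM in the controls, at 4.68, 4.18 and 3.16 with construct 5 and at 3.11, 3.81 and 3.19 with construct 7. All 6 libraries were above all controls, but construct 5 replicate 3 and 2 of the construct 7 libraries only just. The difference with construct 5 was 0.29 (0.04 to 0.55, adjusted p = 0.121). Without construct 5 replicate 3 it passed, at an adjusted p of 0.0463, and it was the 1 member to do so under any alternative.

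Trim8, a regulator of cytokine signalling that binds Socs1, stood at 6.07, 4.90 and 6.69 FPKM in the controls, at 8.21, 6.97 and 6.45 with construct 5 and at 5.92, 5.48 and 4.69 with construct 7. The means of the constructs lay on opposite sides of the control mean, though libraries of each overlapped the controls. The libraries of construct 5 and construct 7 did not overlap each other. Construct 7 minus construct 5 was -0.37 (-0.64 to -0.09, adjusted p = 0.133), the largest difference between the constructs among the tested members.

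**Figure D2:**
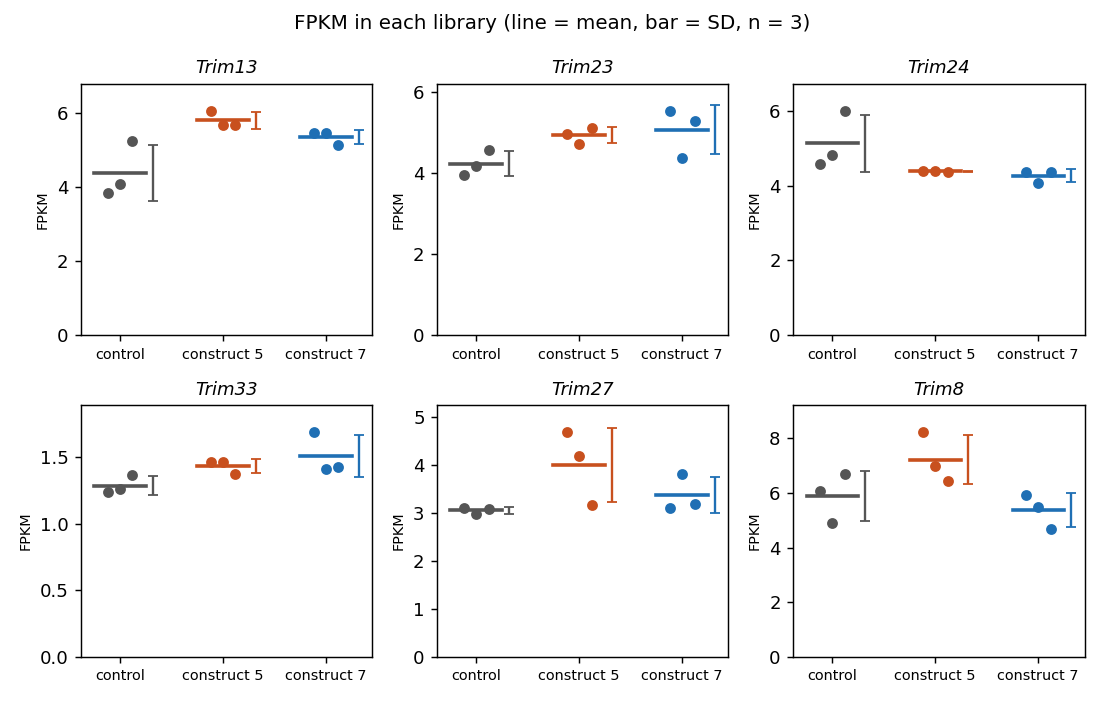
FPKM of Trim13, Trim23, Trim24, Trim33, Trim27 and Trim8 by group, each axis starting at 0; points are libraries, lines the means and bars the SD of 3 libraries. Trim24 lies lower and Trim33 and Trim27 higher than all controls in the 6 libraries given an Ubr4 construct, and Trim8 separates construct 5 from construct 7. The values are without median-ratio scaling, after which Trim33 and Trim27 overlap the controls.

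The antiviral and interferon-response list has 18 members in the table, of which 6 were tested and 0 passed with either construct. Of those 6, 5 had a difference above 0 with construct 5, where 76.7% of all genes did, with a median of 0.24 against 0.13 over all genes. With construct 7 the count was again 5, where 57% of all genes did, and the median 0.03 against 0.02. Trim21, counted in both, reached a mean of 1 FPKM only through construct 5 (1.27, against 0.90 in the controls and 0.95 with construct 7). Its part in the construct 5 count and median is therefore partly fixed by the filter. Trim25, which ubiquitinates the RNA sensor RIG-I, stood at 3.02, 3.53 and 3.499 FPKM in the controls, at 5.03, 4.32 and 3.75 with construct 5 and at 3.13, 3.92 and 3.38 with construct 7. Construct 5 lay above all controls, with replicate 1 highest, and construct 7 spread across them. Its difference was 0.30 with construct 5 (0.06 to 0.54, adjusted p = 0.10) and 0.04 with construct 7 (-0.20 to 0.28).

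Trim12c, a copy of Trim5 in the chromosome 7 cluster with the promoter window printed above, stood at 1.71, 1.68 and 1.68 FPKM in the controls, at 2.42, 2.22 and 1.85 with construct 5 and at 1.82, 1.61 and 1.75 with construct 7. Its controls were the tightest of the family and construct 5 cleared them. The difference was 0.23 (0.05 to 0.41, adjusted p = 0.0984). Trim26, the chromosome 17 gene whose promoter is given in full, stood at 2.48, 2.28 and 2.63 FPKM in the controls, at 3.49, 3.00 and 2.83 with construct 5 and at 2.58, 2.76 and 2.30 with construct 7. Again construct 5 was above all controls, construct 7 was not, and the difference was 0.24 (0.05 to 0.43, adjusted p = 0.0992).

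Trim21, a cytosolic receptor for antibodies bound to virus, stood at 0.787, 0.803 and 1.11 FPKM in the controls, at 1.45, 1.49 and 0.878 with construct 5 and at 0.882, 0.966 and 0.995 with construct 7. Only construct 5 replicates 1 and 2 stood out, while replicate 3 lay among the controls, and the group mean was 141% of control. The difference was 0.25 (-0.01 to 0.51, adjusted p = 0.175). Trim56, a ligase of antiviral sensing, stood at 1.52, 1.48 and 1.44 FPKM in the controls, at 1.72, 2.01 and 1.58 with construct 5 and at 1.64, 1.47 and 1.46 with construct 7. It was above the controls in all construct 5 libraries, with a difference of 0.16 (-0.01 to 0.33, adjusted p = 0.187) that turned to -0.022 with quantile normalization.

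Trim65, a ligase for the RNA sensor MDA5, was the exception of the list. It stood at 1.25, 0.889 and 1.17 FPKM in the controls, at 1.09, 1.004 and 1.05 with construct 5 and at 0.998, 0.818 and 0.983 with construct 7. Construct 5 lay inside the range of the controls, with a difference of -0.04 (-0.22 to 0.15), and construct 7 stood at -0.12 (-0.31 to 0.07, adjusted p = 0.717). Trim65 overlaps its neighbour Trim47 on chromosome 11 and shares 4.49% of its words with it.

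Summed over the 18 antiviral members, the FPKM level in percent of the control mean was 146, 135.5 and 110 in the construct 5 libraries, 101, 104.5 and 98.5 with construct 7, and 101, 95.01 and 104 in the controls themselves. Construct 5 lay above every other library, by a small margin in replicate 3. All sums in this paragraph are without the median-ratio scaling described below, and the typical gene also ran high with construct 5. The median over all genes of at least 0.1 FPKM was 115% of control with construct 5 and 102% with construct 7. The scaling factors were 1.11, 1.07 and 1.02 in the construct 5 libraries, against 0.953 to 0.976 in the controls. The 17 interferon-stimulated genes of the outside list summed to 197%, 159% and 114% with construct 5 and to 82.5%, 150% and 91.0% with construct 7, where replicate 2 stood apart, against 111%, 96.4% and 92.2% in the controls. Macrophage markers, of which 11 are in the table and none is at 0 in all libraries, summed to 180%, 247% and 135% with construct 5 and to 67.1%, 99.3% and 78.6% with construct 7, against 93.2%, 124% and 83.3% in the controls. That is 198 to 364 FPKM with construct 5, 98.8 to 146 with construct 7 and 123 to 182 in the controls. With construct 5, 1 of 10 tested markers rose, Lyz2, where 4.67% of all genes did. Between the constructs Lyz2 and Cd14 were lower with construct 7 (adjusted p = 0.0325 and 0.0471), where 1.07% of all genes were. The 6 fibroblast and matrix markers summed to 117%, 182% and 120% with construct 5 and to 74.3%, 80.3% and 78.3% with construct 7, against 99.04%, 108% and 93.2% in the controls. All construct 5 libraries lay above all controls and all construct 7 libraries below them. Of the 6, 1 rose with construct 5 (4.67% of all genes), the collagen gene Col1a2, by 0.61 (adjusted p = 0.0491), and 0 passed with construct 7 against control. Between the constructs 3 were lower with construct 7 (1.07% of all genes): Col1a1 (-1.28, adjusted p = 0.0201), Col1a2 (-1.14, adjusted p = 0.0174) and Col3a1 (-1.09, adjusted p = 0.0443). These marker calls were marginal: the rises of Lyz2 and Col1a2 with construct 5 passed in 4 of 17 alternatives each (adjusted p from 0.0405 to 0.154 and from 0.0400 to 0.138), with direction kept in all, and were lost on leaving out any 1 library other than construct 5 replicate 3 or construct 7 replicate 2. Between the constructs Col1a2 passed in 13 of 17, Col1a1 in 12, Lyz2 in 10, Col3a1 in 7 and Cd14 in 5 of 16. Each of these 5 was lost without construct 7 replicate 1 (adjusted p from 0.0775 to 0.148) and without construct 7 replicate 3 (from 0.0645 to 0.138). All but Col1a2 were also lost without construct 5 replicate 1 (from 0.0580 to 0.116), Lyz2 and Cd14 without construct 5 replicate 2 (0.0555 and 0.0637), and Lyz2, Cd14 and Col3a1 without control replicate 1 (0.0602, 0.0815 and 0.0809), the last 2 of them also without control replicate 2 (0.0707 and 0.0659) or 3 (0.0655 each). The part of these cells in the Trim levels was not tested, and in bulk RNA fewer cells of a type and less RNA per cell cannot be told apart.

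**Figure D3:**
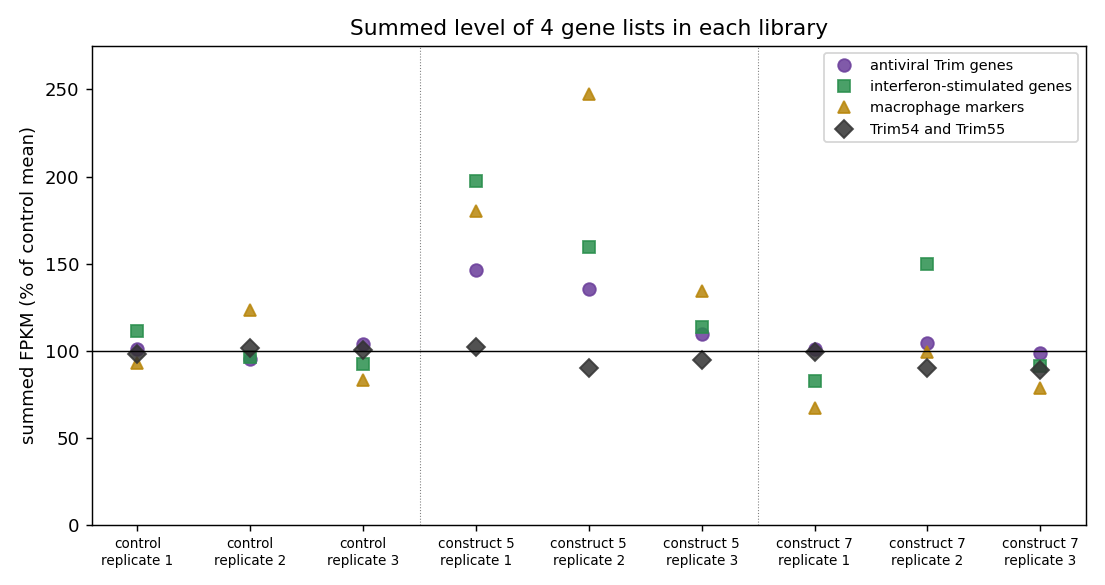
Summed FPKM, in percent of the control mean, of the antiviral Trim genes, the interferon-stimulated genes, the macrophage markers and Trim54 with Trim55, in each of the 9 libraries. The sums are without median-ratio scaling, and the typical gene also ran high with construct 5. In the construct 5 libraries the first 3 lists lie above 100% and Trim54 with Trim55 between 90.3% and 102%; in construct 7 replicate 2 the interferon-stimulated genes stand at 150% while the antiviral Trim genes stand at 104.5%.

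With construct 5 the 9 members with this paired GAAA match stood at 126% to 164% of the control mean, with a median of 141%. The 21 other members with a promoter and a mean of at least 0.1 FPKM stood at 85.5% to 177%, with a median of 121%, and all genes of at least that mean had a median of 115%. The holders thus lay in the upper part of the range of the others, and the difference was not tested. Of the 9, Trim5, Trim12a, Trim12c, Trim30a, Trim30d and Trim34a are related copies in the chromosome 7 cluster. Reads can be assigned between those copies that share much sequence, so the holders are not taken as separate observations. Trim2 holds the match at only 1 of several start sites, and all these percentages are without median-ratio scaling. With construct 7 the medians were 102% for the holders, 101% for the others and 102% for all genes. In construct 5 replicates 1 and 2 all 9 holders stood above every control, and in replicate 3 4 did, where 60%, 58.8% and 43.1% of all genes of at least 0.1 FPKM stood so. Of the 21 others the counts were 18, 16 and 8. In each construct 7 library the number of holders above every control was 2, and among the others it was 7, 8 and 2, where 29.9%, 33% and 28.6% of all genes lay above every control. Untested holders with construct 5 were at 164% of the control mean for Trim30a, 163% for Trim30d, 160% for Trim5, 152% for Trim34a, 130% for Trim2 and 126% for Trim12a.

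The list of other PRY-SPRY and single-type members has 14 in the table and 11 tested, with 0 passing. All 11 had a difference above 0 with construct 5 (median 0.22 against 0.13 over all genes), where 76.7% of all genes did. Of these Trim41 turned below 0 after median-ratio scaling, on which scale 52.4% of all genes were above 0. With construct 7, 8 were above 0 (median 0.06 against 0.02), where 57% of all genes were. Trim35 was the most abundant, at 32.4, 37.8 and 34.8 FPKM in the controls, 38.0, 41.9 and 43.0 with construct 5 and 33.3, 46.2 and 37.3 with construct 7. Construct 5 lay above the controls, replicate 1 barely, and the difference was 0.22 (-0.04 to 0.48, adjusted p = 0.212). Trim16, which takes part in autophagy of damaged lysosomes, stood at 8.01, 9.14 and 7.44 FPKM in the controls, at 10.6, 9.19 and 9.96 with construct 5 and at 7.81, 9.28 and 10.2 with construct 7, with a difference of 0.25 with construct 5 (0.01 to 0.49, adjusted p = 0.141). Its construct 5 libraries cleared the highest control, replicate 2 by a hair, and construct 7 did not.

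Trim41 stood at 7.73, 6.93 and 6.99 FPKM in the controls, at 8.35, 7.54 and 7.15 with construct 5 and at 6.89, 6.34 and 6.66 with construct 7. All construct 7 libraries lay below all controls and below construct 5. Its difference was 0.08 with construct 5 (-0.09 to 0.25) and -0.11 with construct 7 (-0.27 to 0.06), and construct 7 minus construct 5 was -0.18 (-0.35 to -0.02, adjusted p = 0.188).

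With construct 5 taken as a whole, 24 of the 27 tested members had a difference above 0 from control, where 76.7% of all genes did. Their median was 0.21 against 0.13 for all genes, with a range of -0.18 to 0.35, and 21 of 27 lay above the median of all genes. Trim21, which passed the filter only through its construct 5 level, is in both counts. At an unadjusted p under 0.05 the 10 higher members were Trim3, Trim12c, Trim13, Trim16, Trim25, Trim26, Trim27, Trim44, Trim68 and Trim72, or 37% of those tested against 28.5% of all genes, and 3.4% of all genes were lower. Groups did not overlap for 12 higher members (33% of all genes) and for 1 lower member, Trim24 (5.19%).

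Much of this upward share is common to all genes of the construct 5 libraries and depends on how libraries are put on one scale. After median-ratio scaling, which sets the typical gene equal between libraries, the median of all genes moved from 0.13 to 0.01 with construct 5. The members above 0 were then 21 of 27, Trim21 again among them, against 52.4% of all genes. At an unadjusted p under 0.05, 1 was higher (Trim13, 10.7% of all genes) and 2 were lower (Trim24 and Trim54, 12.1%). On that scale Trim24 stood at -0.30 (adjusted p = 0.0959), Trim54 at -0.23 (adjusted p = 0.130) and Trim13 at 0.22 (adjusted p = 0.179), and Trim28, Trim41 and Trim55 changed sign. With construct 5 both Trim24 and Trim54 lay below all controls after this scaling (15.6% of all genes), and Trim12c and Trim26 stayed above them (14.4%). The other members that had lain above all controls, such as Trim13, Trim25 and Trim72, then overlapped them.

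With construct 7, 20 of 27 members had a difference above 0, where 57% of all genes did, with a median of 0.04 against 0.02 and a range of -0.21 to 0.24. Groups did not overlap for 2 higher members, Trim27 and Trim33 (10.5% of all genes), and for 3 lower ones, Trim24, Trim41 and Trim54 (6.26%). At an unadjusted p under 0.05, 1 member was lower, Trim24, in a direction passed by 3.63% of all genes. After median-ratio scaling 17 were above 0 against 49.4% of all genes. For the mean of both constructs 23 of 27 were above 0 (72% of all genes, and 19 of 27 against 51.2% after that scaling) and the median was 0.12 against 0.07. Trim27 and Trim33 lay above all controls in both constructs (8.04% of all genes) and Trim24 below them (1.45%). After median-ratio scaling Trim27 and Trim33 overlapped the controls, and Trim24 and Trim54 lay below all controls in both constructs. The shares of all genes with these patterns were not computed on that scale. Without that scaling, Trim13 (0.29, adjusted p = 0.128), Trim23 (0.20, adjusted p = 0.206) and Trim24 (-0.20, adjusted p = 0.208) had an unadjusted p under 0.05 for the mean of both constructs. Of all genes, 16.1% did so upward and 3.02% downward.

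Between the constructs most members had the lower level with construct 7. A difference above 0 was found for 3 of 27 (Trim23, Trim33 and Trim55), where 24.5% of all genes had one, and the median was -0.15 against -0.10. Trim21, which passed the filter only through its construct 5 level, is among the members below 0, so its part is partly fixed by the filter. At an unadjusted p under 0.05, 8 were lower (Trim3, Trim8, Trim12c, Trim25, Trim26, Trim41, Trim44 and Trim47), against 20.5% of all genes, and 0 were higher, against 2.57%. Groups did not overlap for 11 lower members, where 22.4% of all genes had that pattern. After median-ratio scaling 8 of 27 were above 0 against 49.6% of all genes. Only Trim8 and Trim41 then had all construct 7 libraries below all construct 5 libraries, and Trim33 had them all above. Only Trim8 kept an unadjusted p under 0.05 (limma, adjusted p = 0.261). The shares of all genes with these patterns were not computed on that scale.

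**Figure D4:**
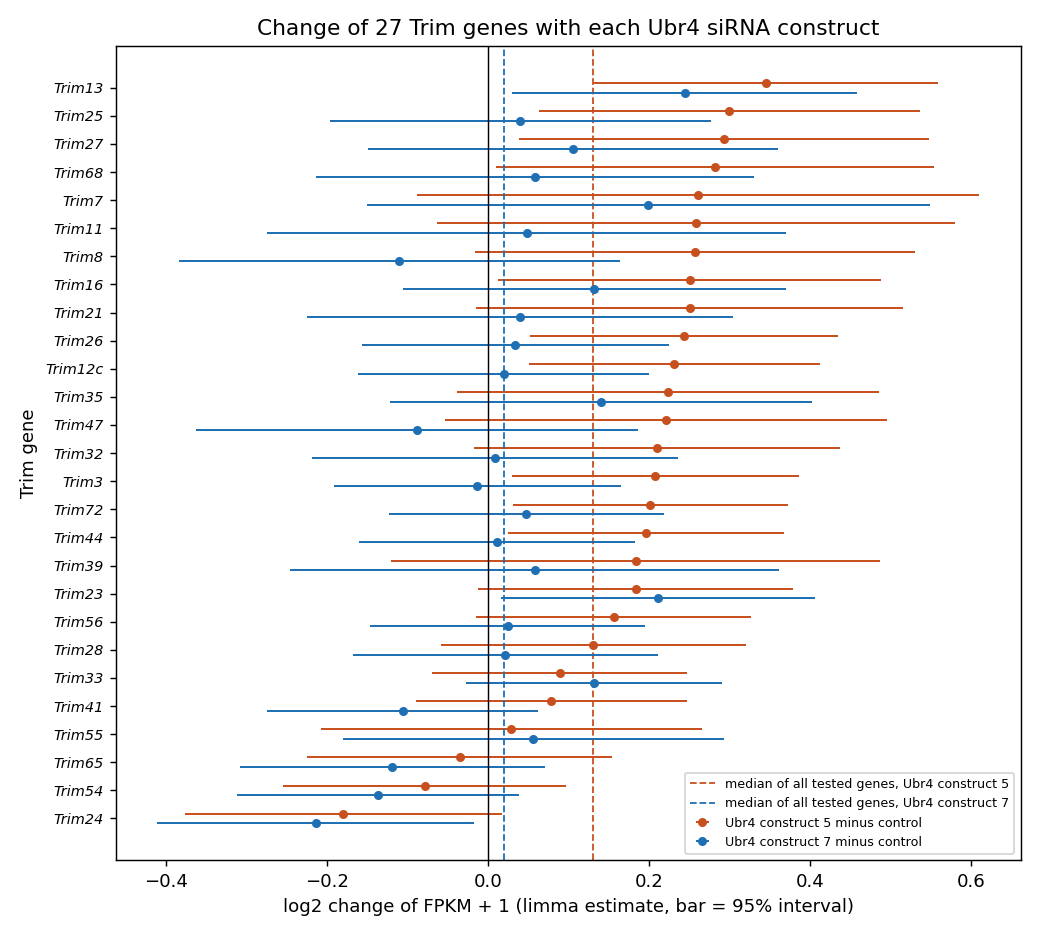
Difference from control in log2(FPKM + 1) of the 27 tested Trim genes with construct 5 and construct 7; points are limma estimates, bars their 95% intervals, and dashed lines the medians of all tested genes (0.13 and 0.02). Of the construct 5 points 21 lie right of 0.13, and of the construct 7 points 17 lie right of 0.02, and Trim24 and Trim54 lie left of 0 with both.

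Of the 30 untested members, 14 had a mean of 0.1 to 1 FPKM. With construct 5 all 14 had a higher mean than the controls, where 79.4% of all 4762 genes with a mean in that range did. After median-ratio scaling 12 of 14 had the higher mean, against 69.5% of those genes. In 3 of them (Trim5, Trim30a and Trim45) each construct 5 library lay above each control, a share of members no larger than the 27% of all genes in the range with that pattern. After that scaling it was 2 (Trim5 and Trim30a, 18.4% of those genes). With construct 7, 3 of 14 had the higher mean, where 50.2% of those genes did, and 0 had all libraries above all controls (4.81%). Trim59, an anchored relative of Trim13, stood at 177% of control with construct 5, but its recovered reads ran from 11 to 105 per library, and the controls differed by a factor of 2.177. Trim62 had 23 to 65 reads and Trim46 16 to 37. Some members were at or near the floor: Trim58, known from red cell maturation, and Trim43b were seen with 1 read each over all libraries, Trim40 with 2, and Trim30e-ps1 was listed at 0 throughout. At such depths a difference between groups was not detectable.

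Some TRIM proteins have other names. Of 7 such genes that were listed, 4 were tested and 0 passed. Pml, the core of nuclear bodies and an interferon target, stood at 1.03, 0.971 and 1.02 FPKM in the controls, at 1.55, 1.46 and 1.03 with construct 5 and at 0.869, 1.19 and 1.01 with construct 7, a difference of 0.22 with construct 5 (adjusted p = 0.165). Mid1, a microtubule-bound ligase, had 0.11 with construct 5, and with construct 7 the striated muscle proteins Fsd2 and Cmya5 had -0.15 and -0.07.

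The E2 enzymes that pass ubiquitin on through RING ligases held the change that was most stable to the processing. Of 11 tested, 1 fell and 1 rose with construct 5, where 0.602% and 4.67% of all genes did, and 0 passed with construct 7. Ube2e1 stood at 13.5, 13.4 and 13.1 FPKM in the controls, at 8.03, 8.08 and 7.83 with construct 5 and at 14.0, 14.9 and 14.4 with construct 7. Every construct 5 library lay far below all others, and the SD within each group was 0.217, 0.133 and 0.454 FPKM. Ube2e1 fell by 0.68 with construct 5 (adjusted p = 0.00631), stood at 0.10 with construct 7 (adjusted p = 0.618), and was higher by 0.78 with construct 7 than with construct 5 (adjusted p = 0.00178); both calls held in all 17 alternatives. Ube2d2, the E2 most often paired with RING ligases in vitro, rose with construct 5 by 0.29 (adjusted p = 0.0492), a call that held in 1 of 17 alternatives and was lost without any 1 of the 9 libraries. Its control libraries stood at 15.1, 15.4 and 15.6 FPKM, construct 5 at 20.8, 17.7 and 18.8 and construct 7 at 17.4, 18.0 and 18.3, where the difference was 0.20 (adjusted p = 0.398).

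Partners with which Trim28 silences chromatin were all tested, 9 of 9. With construct 5, 3 rose, where 4.67% of all genes did: the methyltransferase Setdb1 (0.38, adjusted p = 0.0471), the remodeller Chd4 (0.44, adjusted p = 0.0471) and the heterochromatin protein Cbx3 (0.31, adjusted p = 0.0491). With construct 7, 0 passed, at 0.16, 0.17 and 0.14. Setdb1 stood at 2.51, 2.32 and 2.75 FPKM in the controls, at 4.07, 3.35 and 3.39 with construct 5 and at 3.00, 3.09 and 2.76 with construct 7, so both constructs lay above the controls, construct 7 replicate 3 barely. These calls were lost after median-ratio scaling (adjusted p of 0.0904, 0.0967 and 0.133) and held in 4 of 16, 5 of 17 and 3 of 17 alternatives. They were lost without any 1 control, without construct 5 replicate 1 or 2 and without construct 7 replicate 3, at adjusted p up to 0.154. Setdb1 and Chd4 were also lost without construct 7 replicate 1, and Cbx3 without construct 5 replicate 3. Between the constructs Chd3 was lower with construct 7 (-0.44, adjusted p = 0.0463), where 1.07% of all genes were. How that call held under the alternatives was not examined. Against control, Chd3 did not pass with construct 5 (0.31, adjusted p = 0.0579) or construct 7 (-0.13, adjusted p = 0.675).

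RNA sensing and interferon signalling genes, the surroundings of Trim25, Trim56 and Trim65, had 15 tested, with a median of 0.33 with construct 5 against 0.13 over all genes. One of them, Ddx58, reached a mean of 1 FPKM only through construct 5 (1.32, against 0.87 in the controls and 0.94 with construct 7). With construct 5, 1 gene of the list rose, where 4.67% of all genes did. Zc3hav1, an antiviral RNA-binding protein, stood at 1.48, 1.45 and 1.42 FPKM in the controls, at 2.15, 2.27 and 1.83 with construct 5 and at 1.43, 1.67 and 1.37 with construct 7. It rose with construct 5 (0.33, adjusted p = 0.0494), where all 3 libraries lay above all others, and its difference was 0.02 with construct 7. The call held in 2 of 16 alternatives, without construct 5 replicate 3 and without construct 7 replicate 2, and was lost when any other library was left out (adjusted p up to 0.158) and after median-ratio scaling (adjusted p = 0.110). With construct 7 0 passed, and the lowest p belonged to Mavs (0.18) and Tyk2 (0.10). Of 14 tested interferon-stimulated genes 0 passed, with a median of 0.36 with construct 5 and 0.04 with construct 7; Ifi35 had the lowest adjusted p with construct 5 (0.46, adjusted p = 0.0561).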

How the data were processed

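Total RNA of 9 tibialis anterior libraries, 3 per group, had been extracted with trizol, per the labels' protocols. The authors deposited 1 table of FPKM values for 23231 genes, for which the submitters' processing notes name BWA, STAR, HTSeq and build mm9; versions, the role of each tool and strand use are not given in the sources used here. FPKM are not counts. log2(FPKM + 1) of the 10794 genes with a mean FPKM of at least 1 from all 9 libraries was fitted in R 4.3.3 by limma 3.58.1 (a linear model with trended eBayes; 4 contrasts; two-sided). Differences are therefore on the log2(FPKM + 1) scale, which understates changes of low genes. The fit was tested on simulated data.

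Depth was recovered from FPKM steps with GENCODE M21 exon lengths: 2338 of 3709 genes with few reads pointed to 1 common depth. Of 51635 values between 0.5 and 50 reads, 72.8% were whole within 0.1 reads, where chance gives 20%. Recovered reads were used for description only. Shared words and exon overlaps use GENCODE M21 and gene order RefSeq (GRCm38.p6); no mm9 position is printed.

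Members and gene lists were chosen with earlier results of these data known. Values per library are given for members that passed a test, the 5 lowest p with each construct, the 8 most abundant in the controls and the tested members of the muscle, TIF1 and antiviral lists. From outside lists, the genes named were drawn mainly from those that passed against control or else the 2 lowest p, and not all have values per library. Changes for the mean of both constructs and between constructs are given only at an unadjusted p under 0.05, and not for every gene below it. Replicate numbers were checked as pairs by correlations, which had both signs. With 3 libraries per group this check cannot exclude pairing. Alternatives were pseudocounts of 0.1 and 0.5, no filter, a mean of 5 FPKM, median-ratio scaling, quantile normalization, a replicate block, the 6 libraries of a contrast and each library left out.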

Additional observations from a re-analysis of the deposited data

How the results depend on the processing

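The count of Trim genes that passed was 0 in the reported fit. It stayed 0 in 16 of 17 alternatives for construct 5, in 17 of 17 for construct 7, in 16 of 16 for the mean of both and in 17 of 17 between the constructs. With libraries left out it ranged from 0 to 1 for construct 5 (1, Trim27, without construct 5 replicate 3). Counts over all genes moved far more. With construct 5, 569 became 78 after median-ratio scaling, 86 with quantile normalization, 5 with no filter, 204 with a mean of 5 FPKM, 316 with a pseudocount of 0.1, 246 from the 6 libraries alone and 1 to 581 with a library left out; construct 7 gave 0 to 7 over all alternatives, both constructs 0 to 7 and the constructs against each other 3 to 387. Same-numbered libraries had correlations of their deviations between -0.364 and 0.313, so the numbers were not taken as pairs. With the replicate block 0 members passed in each comparison. The all-gene count was then 11 against 569 with construct 5 and 7 against 6 with construct 7. It was 4 against 1 for both constructs and 217 against 132 between the constructs.

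Values near 0 changed sign, none of them passing a test. With construct 5, median-ratio scaling gave -0.11 for Trim55, -0.0025 for Trim28 and -0.052 for Trim41, and quantile normalization gave -0.081 for Trim33, -0.032 for Trim55, -0.055 for Trim41, -0.022 for Trim56 and -0.059 for Mid1. With construct 7, median-ratio scaling gave -0.0029 for Trim28 and -0.012 for Trim32, and quantile normalization -0.00094 for Trim12c and -0.014 for Trim32. With 1 library left out, construct 5 values ran from -0.033 to 0.14 for Trim55 and from -0.11 to 0.014 for Trim65. Construct 7 values then ran from -0.0060 to 0.051 for Trim12c, -0.0091 to 0.085 for Trim26, -0.030 to 0.097 for Trim25, -0.017 to 0.17 for Trim55, -0.026 to 0.098 for Trim28, -0.0022 to 0.12 for Trim21, -0.071 to 0.095 for Trim32, -0.0095 to 0.042 for Trim56, -0.17 to 0.017 for Cmya5 and -0.028 to 0.056 for Zc3hav1. The cause was not tested.

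The fall of Ubr4 kept its direction in all alternatives. Its adjusted p lay above 0.05 with no filter (0.0523 for construct 5, 0.0976 for construct 7), without control replicate 2 (0.0629 and 0.0598), without control replicate 3 (0.0941 and 0.0877), without construct 5 replicate 1 (0.0956) and without construct 7 replicate 2 (0.0736). Members below about 0.1 FPKM rest on a few reads and were not compared.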
